A study of Solenopsis invicta with 64 samples.

Results

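The ovaries of red imported fire ant (Solenopsis invicta) gynes of a single supergene genotype, SB/SB, were compared between the social forms: 7 ovaries of gynes from polygyne colonies against 8 of gynes from monogyne colonies. These 15 libraries, of 64 in the series, were taken by the tissue, genotype and social form that the labels give them. An eighth polygyne SB/SB ovary, from animal 104D, was left out because it held 73573 counts. Per the labels, gynes (winged, unmated queens) were field-caught and frozen on days of mating flights. They are described as reproductively mature, and each library was made from the RNA of a single ovary by Smart-seq2, a PCR-amplified method without molecular identifiers. Both groups lack the Sb variant, so the comparison addresses social form at a fixed genotype. The ovaries of 8 polygyne SB/Sb and 8 polygyne Sb/Sb gynes were used for the estimate of the spread and as further polygyne values. No label says whether the animals of a group came from separate colonies, so p-values measure the spread between animals. In the gene tests that spread was pooled over all groups in the fit, those of the other genotypes among them.

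A monogyne colony is headed by 1 reproductive queen, a polygyne colony by more than 1. In this species the colony's social form goes with a supergene on the social chromosome, a block of genes that is inherited as a unit because recombination between its SB and Sb variants is suppressed. Queens of monogyne colonies carry SB only, whereas Sb is present in polygyne colonies, whose SB/SB gynes therefore share a genotype with monogyne gynes but were reared in another kind of colony. In the insect ovary, oocytes take up yolk protein through the vitellogenin receptor, and insulin signalling links nutrition to oocyte growth.

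Polygyne ovaries held 12.3 to 20.3 M counts and monogyne ovaries 13.2 to 22.6 M. Means were 17.1 ± 2.91 M (SD, n = 7) and 18.1 ± 2.67 M (n = 8), with an adjusted p of 0.521 in a two-sided exact permutation test. The number of genes detected was 11661 ± 89.5 against 11568 ± 112 (adjusted p = 0.298, exact permutation test). The 10 genes with the most counts held 5.26 ± 1.38% against 6.22 ± 1.59% of a library (adjusted p = 0.391, exact permutation test over the same family of 3). No 2 libraries were identical. The social chromosome is chromosome 16 in the assembly UNIL_Sinv_3.0, from which chromosome names are taken.

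The ovaries of 3 polygyne animals, 15D, 16D and 1E, lay apart from the other 12 SB/SB ovaries. On the leading principal component of 31 ovary libraries, which took 32.8% of the variance, they lay at -13.6, -41.3 and -78.2. The other 4 polygyne SB/SB ovaries lay between 32.2 and 44.6, next to the monogyne ovaries at 42.3 to 56.1. The 16 SB/Sb and Sb/Sb ovaries ranged from -107 to 26.3, and 9 of them lay beyond 15D. On this component the 3 ovaries were thus not apart from polygyne ovaries of the other genotypes. On component 2 (17.8% of the variance) 1E, at 64.6, and 16D, at 51.2, lay beyond all 16. The highest of those was 16C at 36.5, and 15D lay at 33.0. Per gene, 1E was above or below all 8 monogyne libraries at 69.4% of the 10797 genes tested, 16D at 59.3% and 15D at 47.2%. The other 4 were outside the monogyne range at 20.0 to 25.9% of genes. SB/Sb ovaries were outside it at 25.7 to 68.8% and Sb/Sb ovaries at 38.5 to 72.4%. The totals of the 3 ovaries, 19.4 M in 15D, 15.2 M in 16D and 15.5 M in 1E, lay within the range of the rest.

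**Figure D1:**
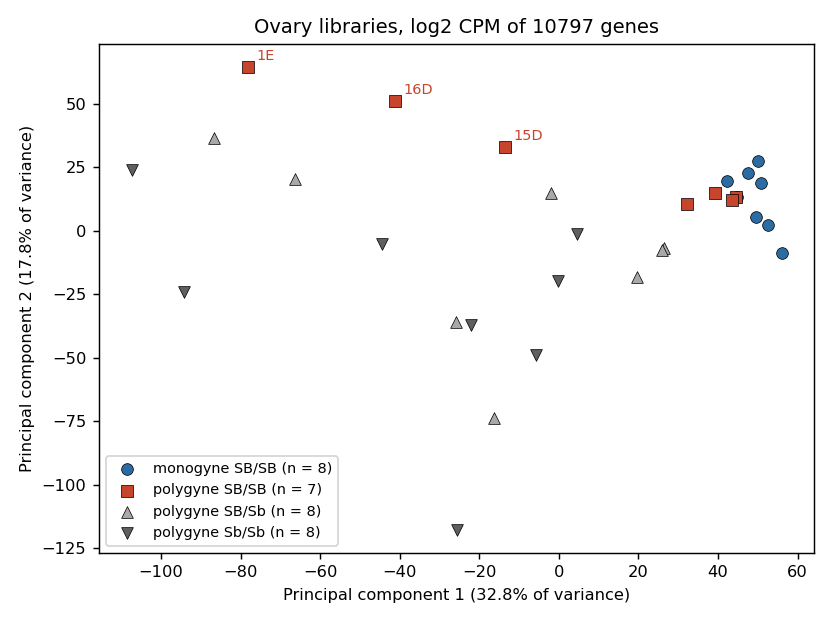
Ovary libraries on principal components 1 (32.8% of variance) and 2 (17.8%) of log2 CPM of 10797 genes, 1 point per library, by social form and genotype. Polygyne SB/SB ovaries 15D, 16D and 1E lie away from the monogyne ovaries, among the values of SB/Sb and Sb/Sb ovaries on component 1, and the other 4 lie next to the monogyne ovaries.

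Spread was larger among the polygyne ovaries, though not without 15D, 16D and 1E. The distance of a library from the others of its group, the root mean square difference in log2 CPM (counts per M), averaged 0.804 ± 0.191 in the 7 polygyne ovaries and 0.607 ± 0.0722 in the 8 monogyne ovaries. The difference of 0.197 had p = 0.00186 in a two-sided exact permutation test over 6435 splits. It was 0.109 without 1E (exact p = 0.0816), and without 15D, 16D and 1E it was -0.0317 (exact p = 0.487). The SD of log2 CPM was larger in the polygyne ovaries for 7981 genes (73.9%), with a median over genes of 0.445 against 0.260.

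Of 10797 genes tested, 113 (1.05%) differed between the social forms by edgeR's quasi-likelihood test at an adjusted p under 0.05. At an unadjusted p under 0.05 there were 2188 (20.3%). In the polygyne ovaries 102 genes (0.945%) were higher and 11 (0.102%) lower. The higher genes had a median log2 change of 1.55 (0.43 to 5.63), and 85 of them reached 1, a doubling. The lower genes had a median absolute log2 change of 0.95 (0.39 to 3.84). The median over all tested genes was 0.01. The groups did not overlap at all for 75 genes higher in polygyne ovaries (0.695% of those tested) and 36 lower (0.333%). Among the called genes, 35 of the 102 and 4 of the 11 had no overlap.

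The count depended on which libraries were in the fit. Without ovaries 15D, 16D and 1E, edgeR called 0 of 11160 genes, with 306 (2.74%) at an unadjusted p under 0.05. That fit kept 4 polygyne SB/SB libraries, and the part of the smaller group in the lower count was not tested. The median log2 change of the 102 higher genes went from 1.55 to 0.68, and 101 of them stayed above 0, against 48.3% of all tested genes. The median of the 11 lower genes was -0.78. In the same edgeR fit 51 of the 102 and all 11 lower genes had an unadjusted p under 0.05, against 295 of 10797 genes. The genes had been called with the 4 remaining polygyne ovaries included, so these directions and p-values were largely set by the choice of genes. In a fit of those 4 and the monogyne libraries alone 2 of 10162 genes were called. Far more genes than the 306 above had an unadjusted p under 0.05 in this smaller fit, although fewer genes were tested in it. That number thus depended on whether the SB/Sb and Sb/Sb ovaries were in the fit. Neither the 0 calls nor the 2.74% shows that the 4 ovaries were without a difference from the monogyne ones. With the other genotypes kept, the count of called genes was 1 without 1E, 5 without 15D and 19 without 16D. It was 526 to 778 when any one of the other polygyne ovaries was left out. Leaving out any one of the 8 monogyne ovaries gave 5 to 44.

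**Figure D2:**
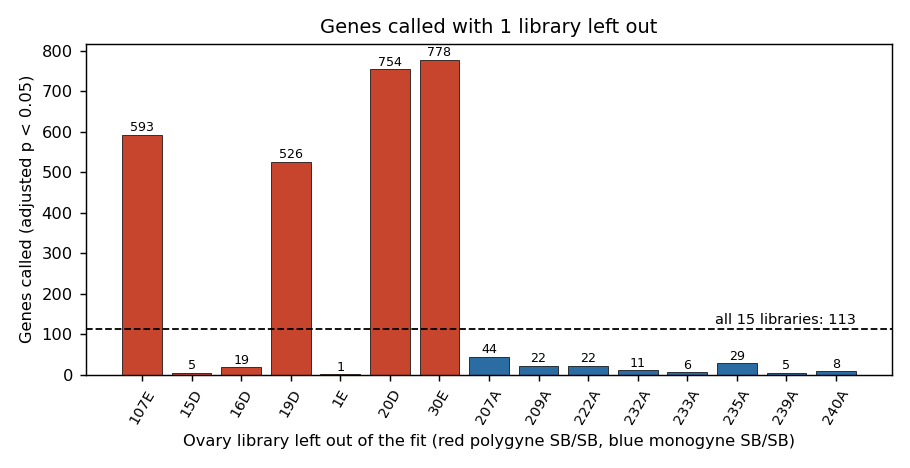
Number of genes called at an adjusted p under 0.05 when the ovary library on the horizontal axis is left out of the edgeR fit; bars are red for polygyne and blue for monogyne animals, and the dashed line is the count of 113 with all libraries. The bars of 15D, 16D and 1E reach 5, 19 and 1, and those of the other polygyne ovaries 526 to 778.

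At the 102 higher genes, libraries 15D, 16D and 1E were above the highest monogyne ovary at 98.0%, 100% and 99.0% of the genes, against 24.1%, 31.2% and 36.0% of all tested genes. The other 4 were above it at 59.8 to 87.3%, against 10.2 to 13.8% of all tested genes. The median SD of log2 CPM at these 102 genes was 0.837 in polygyne and 0.404 in monogyne ovaries, and it was larger in polygyne ovaries for 93 of them. These genes were called from the same libraries, so their shares describe them and test nothing. For 88 of the 102 the highest library of all 15 was 1E, which was the highest at 27.5% of all genes. All 7 polygyne ovaries were past the monogyne range at 35 of these genes, 6 at 33, 5 at 19, 4 at 11, and only 3 at 4.

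**Figure D3:**
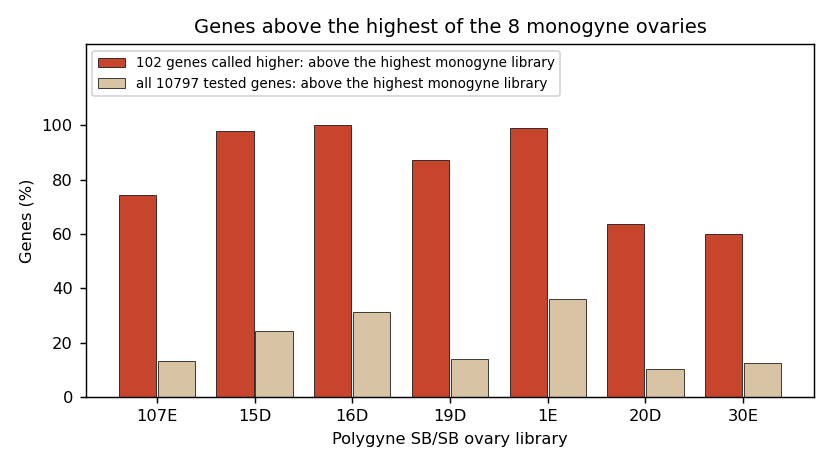
Percentage of genes above the highest of the 8 monogyne ovaries in each polygyne SB/SB ovary, for the 102 genes called higher (red) and for all 10797 tested genes (tan). The red bars span 59.8 to 100% and the tan bars 10.2 to 36.0%.

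LOC105200507, a protein-coding gene on chromosome 6, had the smallest p of any gene. The monogyne ovaries stood at 9.27 to 15.1 CPM (median 12.2) and the polygyne ovaries at 19.2 to 39.8 CPM (median 23.0). Every polygyne ovary was above every monogyne one, and 1E was the highest. The means were 12.4 ± 1.73 (n = 8) and 26.2 ± 6.79 CPM (n = 7), a log2 change of 1.08 ± 0.16 SE (adjusted p = 0.00284). It alone was called in all 15 fits that left out 1 library, and without 15D, 16D and 1E its log2 change was 0.88 (adjusted p = 0.185). In the brain it stood at 21.2 ± 3.85 CPM in monogyne and 24.0 ± 6.98 CPM in polygyne SB/SB animals (log2 0.18 ± 0.26, adjusted p = 0.727).

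LOC105201938, on chromosome 1, stood at 57.1 to 84.7 CPM (median 71.4) in monogyne ovaries and at 89.7 to 208 CPM (median 146) in polygyne ones. The groups were again apart, by a narrow gap between the polygyne ovary 20D and the highest monogyne ovary. The log2 change was 0.99 ± 0.17 (adjusted p = 0.0102), and 0.64 without 15D, 16D and 1E (adjusted p = 0.523). LOC105198011, on chromosome 9, rose by a log2 change of 0.99 ± 0.18 (adjusted p = 0.0147), from 11.7 to 19.6 CPM in monogyne ovaries to 24.3 to 47.1 in polygyne ones. LOC105195789, on the social chromosome, ranged from 56.7 to 86.1 CPM in monogyne and from 99.0 to 170 CPM in polygyne ovaries, a log2 change of 0.73 ± 0.14 (adjusted p = 0.0148). Neither gene had an overlap between the groups.

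Of the 14 higher genes with the smallest p, 11 had no overlap, and their folds ran from 1.66 to 4.59. Besides those above they include LOC105205402 on chromosome 7, LOC105206403 on chromosome 1, LOC105198218 on chromosome 12, LOC105207855 on chromosome 3, LOC105200749 on chromosome 11, LOC105201712 on chromosome 15, LOC105196229 on chromosome 8 and LOC105205836 on chromosome 5. LOC105192966 and LOC105207806 had no chromosome in the gene table. LOC105198218 was one of the 2 genes still called from the 4 remaining polygyne ovaries and the monogyne ones alone. It stood at 34.1 to 44.8 CPM in monogyne ovaries and 55.6 to 166 CPM in polygyne ones (log2 1.18 ± 0.24, adjusted p = 0.0248). The other, LOC105195093, a long noncoding RNA on chromosome 5 named here after its values were seen, stood at 16.7 to 28.9 CPM against 42.7 to 142 CPM. With all libraries it was not called (log2 1.61 ± 0.46, adjusted p = 0.0602), although its groups did not overlap.

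The largest changes among the higher genes rested on few ovaries. LOC105193638 stood at 1.57 to 5.09 CPM in monogyne ovaries. It reached 239 CPM in 1E, 76.2 in 16D and 67.7 in 15D, and 5.48 to 6.25 CPM in the other 4 polygyne ovaries. The lowest polygyne value was thus just above the highest monogyne one, and 15D, 16D and 1E were far above it. The log2 change was 4.25 ± 0.94 (adjusted p = 0.0326), and 0.94 without those 3 ovaries (adjusted p = 1). LOC105192924 (log2 5.63 ± 1.32, adjusted p = 0.0361), LOC105195135 (4.51 ± 1.10, adjusted p = 0.038) and LOC105196217 (4.27 ± 1.07, adjusted p = 0.0457) were near 0 in monogyne ovaries, with highest values of 0.0583, 0.317 and 0.158 CPM. Their highest polygyne values were 8.39, 8.21 and 3.22 CPM, all in 1E. None of the 4 has a chromosome in the gene table.

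Among the higher genes with the most counts, LOC105195168 on chromosome 5 stood at 69.2 to 173 CPM (median 129) in monogyne and 153 to 1732 CPM (median 230) in polygyne ovaries. The groups overlapped by 1 polygyne library, 30E, and the log2 change was 2.07 ± 0.53 (adjusted p = 0.049). In monogyne brains it stood at 5731 ± 4388 CPM (n = 8). LOC105201608 on chromosome 1 (66.2 to 106 CPM against 122 to 439, log2 1.21 ± 0.31, adjusted p = 0.0484) and LOC105200259 on chromosome 11 (76.0 to 121.5 CPM against 122.2 to 289, log2 0.87 ± 0.20, adjusted p = 0.0361) did not overlap. LOC105203422 on chromosome 4 overlapped by 1 polygyne library (53.2 to 95.1 CPM against 92.7 to 306, log2 1.13 ± 0.29, adjusted p = 0.0498).

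Of the 11 genes lower in polygyne ovaries, LOC105197899 on chromosome 10 had the smallest p. It stood at 165 to 192 CPM (median 175) in monogyne ovaries and at 99.4 to 144 CPM (median 120) in polygyne ones. The groups were apart, and neither was spread widely. The log2 change was -0.52 ± 0.10 (adjusted p = 0.0231), and -0.40 without 15D, 16D and 1E (adjusted p = 0.714). LOC105194663, on the social chromosome, fell from 119 to 136 CPM to 84.8 to 105 CPM (log2 -0.39 ± 0.09, adjusted p = 0.0326), and LOC105197357, also there, from 88.3 to 113 CPM to 50.1 to 79.9 CPM (-0.51 ± 0.13, adjusted p = 0.0499). Both were without overlap, as was LOC105207005, which is not placed (0.292 to 1.29 CPM against 0 to 0.249, log2 -3.33 ± 0.84, adjusted p = 0.0455). For LOC105207005 the gap lies near the floor of 3 counts, 0.133 to 0.245 CPM, so it rests on few counts.

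The other 7 lower genes overlapped between the groups. LOC105206788, on the social chromosome, had the largest change (log2 -3.84 ± 0.93, adjusted p = 0.038), but 3 of the 8 monogyne ovaries, 222A, 235A and 240A, were at 0 to 0.175 CPM, within the polygyne range of 0 to 0.387. The other 5 stood at 1.68 to 3.07 CPM. LOC105199676 on chromosome 11 ranged from 13.0 to 141 CPM (median 52.5) in monogyne and from 1.76 to 32.6 CPM (median 11.7) in polygyne ovaries, with a log2 change of -2.0 ± 0.50 (adjusted p = 0.0451). LOC105203150 on chromosome 8 (-2.31 ± 0.55, adjusted p = 0.0361) and LOC105207203 on chromosome 3 (-1.64 ± 0.39, adjusted p = 0.0371) averaged under 3 CPM in both groups. LOC105196588 on chromosome 9 (-0.53 ± 0.12, adjusted p = 0.0361), LOC105194853 on chromosome 1 (-0.89 ± 0.22, adjusted p = 0.038) and LOC105199059 on chromosome 2 (-0.95 ± 0.24, adjusted p = 0.0484) fell by less.

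The 16 ovaries of polygyne SB/Sb and Sb/Sb gynes give further polygyne values for these genes. They were set beside the same 8 monogyne libraries and entered the estimate of the spread, so they are not an independent test. All polygyne SB/SB animals but 1E also share a title number, the number in the animal's name, with SB/Sb and Sb/Sb animals. No monogyne animal does. What the number marks is not given, so polygyne animals that share a number may not be independent of each other. At 10 of the 14 higher genes of smallest p all 16 were above the highest monogyne ovary, as they were at 161 (1.49%) of all tested genes. Each of these 16 libraries alone was above it at 13.4 to 38.3% of all genes. LOC105200507 stood at 18.6 to 27.5 CPM in SB/Sb and 19.1 to 39.5 in Sb/Sb ovaries, and LOC105195789 at 118 to 188 and 95.9 to 197 CPM. All 16 were below the lowest monogyne ovary at 2 of the 11 lower genes, LOC105197899 (84.7 to 130 CPM) and LOC105197357 (41.1 to 71.8 CPM), and at 170 (1.57%) of all tested genes. For LOC105206788 and LOC105199676 the Sb/Sb means, 1.66 ± 0.818 and 65.2 ± 28.1 CPM (n = 8), were near the monogyne means of 1.43 ± 1.19 and 57.7 ± 42.8 CPM (n = 8).

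**Figure D4:**
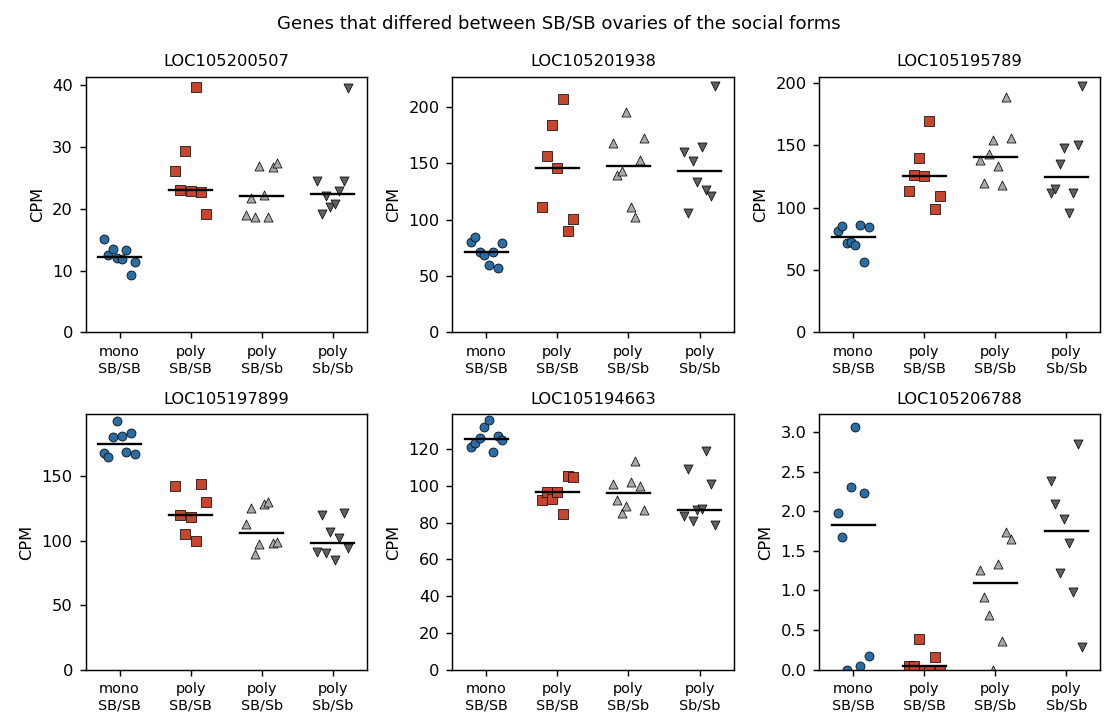
CPM of 6 genes called between the SB/SB ovaries of the social forms, 1 point per ovary library, in monogyne SB/SB (n = 8) and polygyne SB/SB (n = 7), SB/Sb (n = 8) and Sb/Sb (n = 8) gynes; lines are medians. LOC105200507 is above the monogyne range in every polygyne ovary and LOC105197899 below it, while LOC105206788 overlaps.

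The gene table gives a function by synonym for 9 genes, and none of them was called. The vitellogenin receptor gene, LOC105200757 on chromosome 2, is the oocyte marker available here and was present in all 15 ovaries. It stood at 49.3 to 88.4 CPM (median 58.5) in monogyne ovaries. In polygyne ovaries it stood at 302 CPM in 15D, 543 in 16D and 624 in 1E, and at 53.8 to 62.8 CPM in the other 4. These 3 ovaries were thus well above the monogyne range and the other 4 within it. The log2 change was 1.97 ± 0.67 (adjusted p = 0.0842), and -0.07 ± 0.67 without those 3. In SB/Sb ovaries the gene ranged from 23.4 to 552 CPM and in Sb/Sb ovaries from 14.2 to 660 CPM. In bulk ovaries, a different number of cells that express a gene and a different amount of RNA per cell cannot be told apart.

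Insulin receptors bind insulin-like peptides at the cell surface. The gene for InR-2, LOC105195102 on chromosome 5, showed the same 3 ovaries high, with 29.9 CPM in 15D, 59.2 in 16D and 62.8 in 1E. The other 4 polygyne ovaries stood at 3.67 to 10.5 CPM and the monogyne ovaries at 4.81 to 7.67 CPM. Its log2 change was 2.04 ± 0.58 (adjusted p = 0.0581), and 0.23 without the 3. InR-1, LOC105207962 on chromosome 8, was high in 16D (8.19 CPM) and 1E (9.37) but not in 15D (0.372), against 0.271 to 1.73 CPM in monogyne ovaries (log2 1.97 ± 0.65, adjusted p = 0.0787). With DESeq2 in place of edgeR the vitellogenin receptor (adjusted p = 0.0242), InR-2 (adjusted p = 0.00915) and InR-1 (adjusted p = 0.0275) passed the threshold, from the same libraries.

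The odorant-binding protein genes, whose products carry odorants in insect antennae and other tissues, were low in the ovary. LOC105203994 on chromosome 6 stood at 0.634 to 1.70 CPM in monogyne and 0.830 to 3.10 CPM in polygyne ovaries (log2 0.70 ± 0.28, adjusted p = 0.137). LOC105195107 on chromosome 5 stood at 0.336 to 2.80 against 1.28 to 3.83 CPM (log2 0.90 ± 0.58, adjusted p = 0.382). Both overlapped. In SB/Sb and Sb/Sb ovaries LOC105203994 was at 1.99 to 6.03 CPM, above every monogyne SB/SB value.

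Genes of detoxification enzymes did not pass the test either. The cytochrome P450 gene CYP6A14, LOC105195645 on chromosome 4, was uneven within the monogyne ovaries. It stood at 171 to 205 CPM in 207A, 233A and 239A and at 3.95 to 17.1 CPM in the other 5. Polygyne ovaries ranged from 5.81 to 61.9 CPM (log2 -1.49 ± 0.98, adjusted p = 0.397). The cytochrome P450 gene CYP4AB2, LOC105193893, stayed under 1 CPM in all 15 ovaries (log2 -0.06 ± 0.85, adjusted p = 0.974). The glutathione S-transferase gene GSTS1, LOC105197561, was at 277 to 657 against 322 to 553 CPM (log2 -0.04 ± 0.34, adjusted p = 0.955). LOC105199703, with the synonyms Ag5 and CRVP, had 0 counts in all 15 ovaries, which allows up to 0.245 CPM (3 counts) in the shallowest library.

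**Figure D5:**
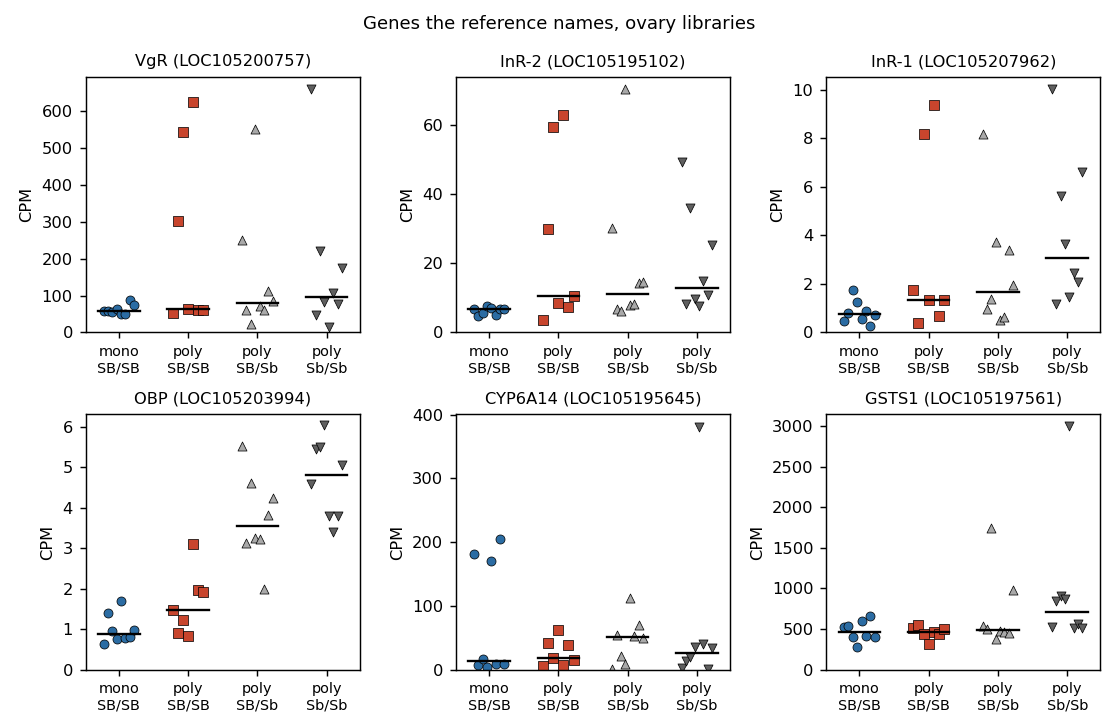
CPM of 6 genes that the gene table names by a synonym, 1 point per ovary library, by social form and genotype; lines are medians (n = 8 monogyne SB/SB, 7 polygyne SB/SB, 8 SB/Sb, 8 Sb/Sb). VgR and InR-2 are high in 3 of the 7 polygyne SB/SB ovaries, and the median of VgR is 58.5 CPM in monogyne and 62.8 CPM in polygyne SB/SB ovaries.

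The called genes were spread over the genome. Chromosome 16 held 10 of them (7 higher and 3 lower) among 798 tested, 1.25%, against 1.05% of all genes. The other chromosomes ranged from 0.203% (chromosome 14) to 1.41% (chromosome 10). Called genes lay next to each other once: LOC105195115 and LOC105195114, both higher, on chromosome 5. By gene class, 92 of 9174 protein-coding genes (1.00%), 0 of 143 long noncoding RNA genes and 21 of 1414 genes not in the table (1.49%) were called. No enrichment was tested.

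Genes high in the brain were measured as genes of another tissue, because a dissected ovary could hold some. Markers of fat body, muscle, trachea, cuticle and haemocytes could not be matched, since the gene table has no product names. Those tissues were therefore not measured. Of 86 genes with a mean CPM at least 100 times as high in the brain as in the ovary, defined in SB/Sb and Sb/Sb animals, 49 were tested and 0 were called, and 4 were at 0 in all 8 monogyne ovaries. Their median log2 change was 0.45, against 0.01 over all genes. They took 0.00428 to 0.00599% of the counts in monogyne and 0.00547 to 0.00964% in polygyne ovaries, with 1E the highest. The 49 genes that were as much higher in the ovary took 2.15% of the counts in 15D, 2.49% in 16D and 2.39% in 1E, against 3.18 to 4.39% in the other 12 ovaries. None of these 49 was called, and their median log2 change was -0.06. These shares moved with the 3 ovaries 15D, 16D and 1E, and their part in the result was not tested.

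The brains of the same 3 animals also lay outside the monogyne range at many genes. Brain 1E was outside the range of the 8 monogyne brains at 63.2% of 10704 genes, 16D at 59.3% and 15D at 44.0%. The other 5 polygyne SB/SB brains, 104D among them, were outside it at 14.6 to 38.4%, the highest being 19D. Between the brains of these social forms, 1 gene of 10704 (0.00934%) was called, with 1974 (18.4%) at an unadjusted p under 0.05, and with DESeq2 358 were called. The gene was LOC105196801 on chromosome 2, named here after its values were seen (brain log2 1.09, adjusted p = 0.00768; ovary log2 0.83 ± 0.27, adjusted p = 0.0732). Of the 102 genes higher in polygyne ovaries 97 were tested in the brain and 0 were called there. Their log2 change in the brain had a median of 0.88, against 0.04 over all genes tested in both tissues. Of the 97, 90 were above 0, against 53.0% (5261 of 9927) over all genes. For the 11 lower genes the median was -0.16, with 4 above 0. The brains come from the same animals, 15D, 16D and 1E among them.

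Whether the change between social forms differed between ovary and brain was tested with the animal as a block. The edgeR fit called 0 of 11793 genes, with 679 (5.76%) at an unadjusted p under 0.05, and limma's voom also called 0. Thus a call in the ovary that is missing in the brain was not shown to be particular to the ovary, for any of the 113 genes. For LOC105195789 the ovary change exceeded the brain change by 0.82 ± 0.27 (adjusted p = 0.832), and for LOC105197899 the ovary minus brain difference was -0.89 ± 0.52 (adjusted p = 0.834).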

How the data were processed

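RNA from single brains and ovaries of 32 gynes was sequenced. Per the submitters' processing notes, the tools were Trimmomatic 0.32 for trimming, STAR 2.5.3a for alignment and featureCounts for counting. Genome build, annotation and strand setting are not given in the sources used here. Deposited values are the authors' raw counts per gene, without normalization, for 15710 genes, of which 198 are transfer RNAs (0.000177% of counts). Of 15512 LOC symbols 11895 were in a RefSeq gene table of UNIL_Sinv_3.0, which has no product names. Reads shared by near-identical or overlapping genes cannot be told apart.

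All 31 ovary libraries but 104D were fitted with edgeR 4.0.16 in R 4.3.3, with 1 coefficient per group (TMM, filterByExpr at a minimum count of 10, quasi-likelihood F-test, Benjamini-Hochberg adjustment, called at an adjusted p under 0.05). SE is the absolute log2 change over the square root of F. CPM use TMM-scaled totals, are not divided by gene length and are given as mean ± SD. Brains (32 libraries) and the interaction of tissue and group (62 libraries, 31 animals) were fitted likewise. Library measures and distances were compared by exact permutation tests, and the distances were computed once, before the permutation. Distances within a group share libraries, so their p-values do not rest on independent values. DESeq2 1.42.0, limma 3.58.1 and other filters, scalings and library sets served as alternatives, and the fits were tested on simulated data. The floors given for genes with 0 counts cover counting error only.

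Genes named are the 14 higher and 11 lower called genes of smallest p, the 4 in each direction with the largest change and the 4 with the highest mean CPM, and those with a synonym. The members and lists were chosen with earlier results of these data known. Polygyne and monogyne animals share 0 title numbers, so social form and whatever the number marks cannot be told apart. Leaving out 15D, 16D and 1E together was decided after seeing the data.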

Additional observations from a re-analysis of the deposited data

Results flagged for a closer look

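In 90 groups of values (named genes and library measures in the 7 polygyne or 8 monogyne SB/SB ovaries), 12 had a highest library set off from the rest by more than Dixon's 95% critical value. That value assumes normally distributed values, which CPM need not be. Many of the genes were also named for their p, change or level in these same ovaries, so no chance rate is set beside the 12. The groups share libraries and are not independent.

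In polygyne ovaries 7 of these values belonged to 1E. They are its distance from the other polygyne ovaries, 1.22 against 0.703 to 0.854, and its CPM of 6 genes. These genes are LOC105192966 (109 CPM, others 44.7 to 69.3), LOC105207806 (7.48, others 1.58 to 4.0), LOC105192924 (8.39, others 0 to 2.06), LOC105195135 (8.21, others 0 to 1.55), LOC105193638 (239, others 5.48 to 76.2) and LOC105195168 (1732, others 153 to 611). Library 16D had LOC105206788 at 0.387 CPM, others 0 to 0.155, and in 15D the top 10 genes held 7.98% of counts, others 3.76 to 5.56%.

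In monogyne ovaries 3 values belonged to 233A: LOC105203150 at 2.73 CPM (others 0.634 to 1.56), LOC105207203 at 5.79 CPM (others 1.34 to 3.25) and the share of the top 10 genes at 9.90% (others 4.85 to 6.47%).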

How the results depend on the processing

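The ovary count of 113 (102 higher, 11 lower) was 111 with RLE scaling (98 and 13), 144 with limma's voom and quality weights (100 and 44), 42 without a filter on low counts (40 and 2), 251 among genes averaging 50 counts or more (237 and 14), 328 with the library total as covariate (310 and 18), 228 with 104D (213 and 15), 968 with DESeq2 (874 and 94) and 1050 with only the 15 libraries compared (890 and 160). In all 8 of these, 32 of the 113 genes were called (30 higher, 2 lower). The 144 genes called with voom included 56 of the 113. The ovary count was 0 without 15D, 16D and 1E, 2 when the other genotypes were also left out, and 1 to 778 when each library was left out in turn. The brain count of 1 was 358 with DESeq2, 3 with voom, 0 with only the 2 groups, 8 without the brain of 104D and 0 without 15D, 16D and 1E. The interaction count stayed at 0 in every fit run. The difference in distance of 0.197 was 0.235 over the 500 genes of highest variance (exact p = 0.147), 0.109 to 0.236 when each library was left out, and -0.0317 without 15D, 16D and 1E (exact p = 0.487). No log2 change of a called named gene changed sign in any setting run. The cause of these differences was not tested. No paired analysis was possible because the polygyne and monogyne animals share 0 title numbers. At 12.3 to 22.6 M counts a gene with 0 counts may be at up to 0.133 to 0.245 CPM.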
